A study of Saccharomyces cerevisiae with 8 samples.

Results

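The interaction of strain and title in Saccharomyces cerevisiae BY4741, a laboratory strain that is haploid and of mating type a, was analysed as the HP minus nHP difference of the mutation strain less the same difference of the control strain. All 8 of the 8 libraries entered it, as 4 groups of 2, and each library was taken into its group by its title. The control groups are the control strain titled nHP and the control strain titled HP, and the mutation groups are the mutation strain titled nHP and the mutation strain titled HP. The labels describe the mutation strain as more tolerant of oxidative stress than its control and do not name the mutated gene. Per the series description, all cultures grew in synthetic complete medium lacking uracil to mid-exponential phase, with hydrogen peroxide in some and not in others. The medium entry of the labels conflicts with the titles: it gives peroxide to every control library and to no mutation library. HP and nHP are therefore used as titles only, and should the medium entry hold, peroxide and strain cannot be told apart. The labels do not say whether a group's 2 libraries, called first and second by replicate number, come from separate cultures. The p-values thus reflect only the spread between libraries, which may be technical.

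Total counts ran from 8296520 to 11202400 per library. The genes LEU2 and MET17, both missing from the BY4741 genome, had 0 counts in every one of the 8 libraries. The defining transcripts of mating type a were present in the control strain and low in the mutation strain. STE2, the receptor for alpha factor, stood at 651 and 809 CPM (counts scaled to 1e+06 per library) in the nHP control libraries and at 10.7 and 12.6 CPM in the nHP mutation libraries. MFA2, which encodes the a-factor pheromone, stood at 622 and 689 CPM and at 2.87 and 2.97 CPM in the same groups, and BAR1, the protease that degrades alpha factor, at 266 and 316 CPM and at 7.72 and 10.5 CPM. The 40 measured genes of mating type a and the pheromone response summed to between 4826 and 5847 CPM in the control libraries and to between 1232 and 1650.0 CPM in the mutation libraries. For 29 of the 40, all 4 mutation libraries lay below all 4 control libraries, against 7.84% of all genes tested. The alpha-specific receptor gene STE3 stood between 2.10 and 6.34 CPM over the 8 libraries. Haploid-specific transcripts were low as well. GPA1 stood at 178 and 200 CPM in the nHP control libraries and at 16.7 and 13.7 CPM in the nHP mutation libraries. STE4 stood at 212 and 229 CPM and at 20.7 and 19.0 CPM in the same groups. Neither the mating type nor the haploid state given by the strain name was thus borne out by these transcripts in the mutation libraries. The part of either in the strain differences described here was not tested. TAF10, a subunit of the general transcription factor TFIID, had 750 to 1115 counts in the control libraries and 93413 to 178981 in the mutation libraries.

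Yeast cells meet hydrogen peroxide with peroxiredoxins, glutathione peroxidases and thioredoxins, whose genes are largely controlled by the transcription factors Yap1 and Skn7. Heat shock factor Hsf1 controls the chaperones, and Msn2 and Msn4 control the general stress response. Under stress, genes for making ribosomes usually fall while stress genes rise, so the direction in which these groups move is a common reading of how strongly a cell responds.

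The HP difference depended on the strain for many genes. The interaction was called for 1803 of 6174 genes tested (29.2%) by edgeR's quasi-likelihood test at a Benjamini-Hochberg adjusted p below 0.05. Of these, 904 (14.6%) were positive, meaning a more positive HP difference in the mutation strain, and 899 (14.6%) were negative. Without the correction for library composition the split was 1321 positive to 576 negative, and the median interaction of all genes moved from 0.01 to 0.16 on the log2 scale. At least a 2-fold interaction was reached by 308 of the called genes (4.99%), 208 positive (3.37%) and 100 negative (1.62%). Leaving out 1 library at a time gave between 724 and 2554 calls, with 872 without the first nHP control library, 724 without the second nHP mutation library, 953 without the first HP mutation library and 1112 without the second HP mutation library.

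The HP difference was wide in the mutation strain and narrow in the control strain. In the mutation strain 3043 genes were called (49.3%), 1557 higher in HP (25.2%) and 1486 lower (24.1%). In the control strain 121 genes were called (1.96%), 89 higher in HP (1.44%) and 32 lower (0.518%). Over all genes tested, the SD of the log2 HP difference was 0.549 in the mutation strain and 0.259 in the control strain. The differences of the strains, which share no library, correlated across genes with r = 0.234 (Spearman's rho 0.154), a description over genes that are not independent. Among the 1803 called interactions, 834 belonged to genes that fell in the mutation strain and were not called in the control strain, and 832 to genes that rose in the mutation strain and were not called in the control strain. Another 18 rose and 8 fell in the control strain alone, 77 were called in neither strain, and 21 moved the same way in both strains, 14 of them further in the mutation strain. The control count rests on single libraries: it was 51 without the first and 54 without the second nHP control library, and 218 without the first and 206 without the second HP control library. The mutation count was 1773 without the second nHP mutation library and 1997 without the first HP mutation library.

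**Figure D1:**
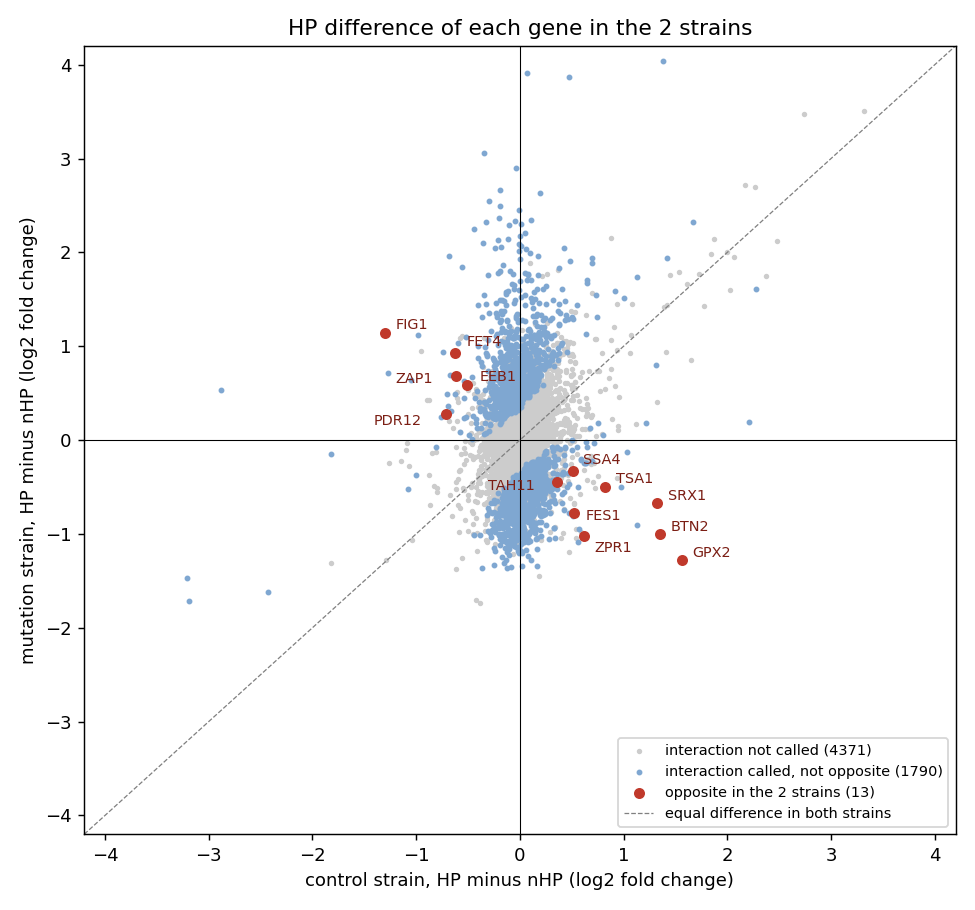
Each point is 1 of 6174 genes, with the log2 HP minus nHP difference of the control strain on the x axis and that of the mutation strain on the y axis. Blue points have a called interaction, the dashed line marks equal differences, and the cloud is taller than wide (SD 0.549 against 0.259), with the 13 opposite genes in red at the upper left and lower right.

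Opposite responses, called in both strains with opposite signs and in the interaction, were found for 13 of 6174 genes (0.211%). Of the 84 genes called in both strains, the other 71 moved the same way. Lower in HP in the mutation strain and higher in HP in the control strain were 8 genes (0.130%): GPX2, SRX1, TSA1, BTN2, FES1, SSA4, ZPR1 and TAH11. Higher in the mutation strain and lower in the control strain were 5 genes (0.0810%): ZAP1, FET4, EEB1, PDR12 and FIG1. That the HP and nHP libraries of these genes do not overlap within a strain follows from how they were selected and adds nothing to the calls. Estimates of opposite sign, whether or not called in each strain, were found for 1108 of the called interactions (61.5%), the 13 included, and for 2744 of all genes tested (44.4%).

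Of the 8 genes that rose with HP in the control strain and fell with HP in the mutation strain, 3 encode enzymes of peroxide defence. The list of these enzymes holds 38 of the 6174 genes tested. It was written with earlier results of these data known, so the count is a description only. GPX2 encodes a glutathione peroxidase that reduces lipid hydroperoxides. In the control strain it stood at 46.2 and 79.8 CPM in the nHP libraries and at 149 and 221 CPM in the HP libraries, and in the mutation strain at 202 and 205 CPM in nHP and at 87.2 and 80.0 CPM in HP. The HP libraries were the higher ones in the control strain and the lower ones in the mutation strain, with no overlap in either, and the nHP mutation libraries lay within the range of the HP control libraries. Its log2 HP difference was 1.56 ± 0.22 (SE) in the control strain and -1.28 ± 0.22 in the mutation strain, and the interaction was -2.84 ± 0.31 (edgeR's quasi-likelihood adjusted p = 4.72e-04). SRX1 encodes sulfiredoxin, which restores peroxiredoxins that peroxide has over-oxidised. It stood at 19.7 and 31.1 CPM in nHP and at 61.1 and 65.9 CPM in HP in the control strain, and at 70.4 and 60.6 CPM and 48.6 and 33.2 CPM in the mutation strain. Here too the order of the titles was reversed between the strains without overlap, which for this and the other opposite genes follows from their selection. The interaction was -2.00 ± 0.28 (adjusted p = 0.00130, same test). TSA1, the major cytosolic peroxiredoxin, stood at 862 and 1175 CPM in nHP and at 1784 and 1821 CPM in HP in the control strain, and at 1665 and 2047 CPM and 1399.9 and 1227 CPM in the mutation strain. The reversal was smaller, with HP differences of 0.82 ± 0.16 and -0.50 ± 0.16 on the log2 scale. GPX2 is 74.0% identical to HYR1 and TSA1 78.5% identical to TSA2, so reads of these pairs could be exchanged by the counting, whose strand and multi-mapping settings are unknown here.

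The promoters of 3 genes, those whose smaller difference of the 2 strains was largest, are shown. Each runs from 250 bases before the start codon to 50 bases after it, 5′ to 3′ on the coding strand, in the RefSeq R64 reference. GPX2 lies at chrII:707278-707577 (+ strand), BTN2 at chrVII:772204-772503 (+ strand) and SRX1 at chrXI:278031-278330 (+ strand). Capitals mark the stress response element AGGGG (printed in GPX2 as its reverse complement CCCCT, 166 bases before the start codon), the inverted heat shock element TTCNNGAA in BTN2 (79 bases before) and the Yap1 site TTAGTCA in SRX1 (151 bases before).
GPX2: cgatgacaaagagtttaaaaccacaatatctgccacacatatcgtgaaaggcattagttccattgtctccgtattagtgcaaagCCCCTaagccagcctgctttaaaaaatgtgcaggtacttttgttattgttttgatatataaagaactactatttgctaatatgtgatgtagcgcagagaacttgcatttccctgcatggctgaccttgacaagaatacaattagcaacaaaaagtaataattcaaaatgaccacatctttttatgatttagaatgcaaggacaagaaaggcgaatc
BTN2: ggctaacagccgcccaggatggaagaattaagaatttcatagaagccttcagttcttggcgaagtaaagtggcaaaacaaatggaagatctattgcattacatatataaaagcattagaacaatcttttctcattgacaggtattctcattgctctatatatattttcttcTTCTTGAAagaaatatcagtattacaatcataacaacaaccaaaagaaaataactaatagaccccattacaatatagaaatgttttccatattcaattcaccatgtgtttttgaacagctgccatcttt
SRX1: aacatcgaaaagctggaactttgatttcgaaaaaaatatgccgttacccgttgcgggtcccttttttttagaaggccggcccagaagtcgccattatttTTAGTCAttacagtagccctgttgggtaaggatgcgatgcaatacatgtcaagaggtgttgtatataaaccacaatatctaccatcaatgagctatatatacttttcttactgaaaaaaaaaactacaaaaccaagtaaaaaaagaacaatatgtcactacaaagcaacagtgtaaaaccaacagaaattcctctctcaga
AGGGG in either orientation was found in 5 of the 8 promoters of this pattern, in 0 of the 5 promoters of the reverse pattern and in 21.6% of all 6001 promoters of this length. In FES1 the match lies 38 bases after the start codon, within the coding sequence. The inverted heat shock element was found in 3 of the 8 and in 12.9% of all promoters, and TTAGTCA in 1 of the 8 and in 3.62% of all. Both were added to the search after promoters were seen, so their matches and shares support nothing. The heat shock element searched first matched ZPR1 and FES1 but not BTN2. The Yap1 site searched first matched PDR12, of the reverse pattern, and not SRX1. A match is a description of letters, not of binding.

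The 38 measured peroxide, thioredoxin and glutathione enzymes, GPX2, SRX1 and TSA1 included, were divided. The interaction was called positive for 8, negative for 9 and not called for 21, and the list's median was 0.01 against 0.01 for all genes tested. In all 44.7% were called, against 29.2% of all genes tested, of which 14.6% were called in each direction. The 9 negative members were GPX2, SRX1, AHP1, TRR1, TSA1, GSH1, TRX2 and the superoxide dismutase genes SOD1 and SOD2, and the 8 positive ones were CTA1, GTT1, TRR2, GPX1, TSA2, MXR2, GRX1 and ECM4. AHP1, another peroxiredoxin, stood at 2077 and 2346 CPM in nHP and 3249 and 3314 CPM in HP in the control strain, and at 3765 and 4554 CPM and 2317 and 1994 CPM in the mutation strain. It fell in the mutation strain (-0.95 ± 0.14), had an estimate of 0.57 ± 0.14 that was not called in the control strain (adjusted p = 0.0760 by edgeR's test), and had an interaction of -1.52 ± 0.20. TRR1, thioredoxin reductase, had an interaction of -1.33 ± 0.19. GSH1, which catalyses the first step of glutathione synthesis, and TRX2, a thioredoxin, were called in the control strain alone, with control differences of 0.62 and 0.59 and mutation estimates of -0.25 and -0.21. Among the positive members, CTA1, the peroxisomal catalase, stood at 82.3 and 50.7 CPM in nHP and at 362 and 294 CPM in HP in the mutation strain, and its control libraries spanned 48.1 to 94.0 CPM without order by title. Its interaction was 2.30 ± 0.38 (adjusted p = 0.00216 by edgeR's quasi-likelihood test), and those of GTT1, a glutathione transferase, and TRR2, the mitochondrial thioredoxin reductase, were 0.97 ± 0.14 and 0.83 ± 0.15. MXR1, which repairs oxidised methionine, rose in both strains, by 2.03 in the control and 1.59 in the mutation strain, and its interaction was not called, except without the first HP control library, where it was -0.54. The positive count depended on single libraries: it was 5 without the first nHP control library, the second nHP control library, the second nHP mutation library or the first HP mutation library, and 13 without the first HP control library. The genes named here other than GPX2, SRX1, TSA1, AHP1 and CTA1 were chosen after their values were seen.

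Another 3 of the 8 belong to the chaperone list, which holds 33 of the genes tested and was also written with earlier results known. BTN2, which gathers misfolded proteins into deposits, stood at 312 and 318 CPM in nHP and at 796 and 813 CPM in HP in the control strain, and at 1137 and 1306 CPM and 651 and 566 CPM in the mutation strain. The groups did not overlap within either strain, and all 4 mutation libraries lay above the nHP control libraries. It was 2.55-fold higher with HP in the control strain and 2.01-fold lower in the mutation strain, with an interaction of -2.36 ± 0.16 (edgeR's quasi-likelihood adjusted p = 4.25e-05). FES1, a nucleotide exchange factor of Hsp70, stood at 236 and 239 CPM and 345 and 340.0 CPM in the control strain and at 495 and 562 CPM and 315 and 301 CPM in the mutation strain, nHP before HP. SSA4, a stress-induced Hsp70 that is 78.1% identical to SSA3, stood at 680.5 and 685 CPM and 994 and 948 CPM in the control strain and at 981 and 959 CPM and 821 and 723 CPM in the mutation strain in the same order. Both were higher in HP in the control strain and lower in HP in the mutation strain, with interactions of -1.30 ± 0.13 and -0.84 ± 0.14.

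Of the 33 measured heat shock chaperones, 27 had a negative and 2 a positive called interaction, with a median of -0.77 against 0.01 for all genes. In all 87.9% were called, against 29.2% of all genes tested, of which 14.6% were called negative. The median HP difference was 0.19 in the control and -0.52 in the mutation strain, where 25 members fell and 2 rose. In the control strain 5 rose. HSP82, an Hsp90, stood at 1152 and 1118 CPM in nHP and 1818 and 1534 CPM in HP in the control strain and at 2855 and 3354 CPM and 1572 and 1359 CPM in the mutation strain. Its interaction was -1.64 ± 0.19, its fall in the mutation strain was called, and its control difference of 0.56 ± 0.13 was not (adjusted p = 0.0649 by edgeR's test). HSP82 is 91.7% identical to HSC82, so their reads may be split by the counting. The 2 positive members, HSP26, a small heat shock protein, and SSA3 had interactions of 0.90 ± 0.19 and 0.58 ± 0.13, and the interaction of HSF1, the gene of the heat shock factor itself, was 0.13 ± 0.15 and not called, apart from 0.34 (called) without the first HP control library. HSP26, SSA3 and HSF1 were chosen after their values were seen, and SSA3 lost its call without the second nHP mutation library (0.58, adjusted p = 0.0509 by edgeR's test). The negative count was 17 without the first nHP control library and the positive count 1 without the second nHP mutation library.

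The other opposite genes of this direction have different roles. ZPR1, a zinc-finger chaperone of translation elongation factor 1A, stood at 234 and 251 CPM in nHP and 362 and 379 CPM in HP in the control strain, and at 559.6 and 652 CPM and 312 and 284 CPM in the mutation strain, with an interaction of -1.64 ± 0.15. TAH11, which loads the replicative helicase onto DNA, stood at 119 and 117 CPM and 149.8 and 153 CPM in the control strain and at 171 and 179 CPM and 127 and 129 CPM in the mutation strain. Both were reversed without overlap, and TAH11 with an interaction of -0.81 ± 0.11 had the least secure control call of the 13 (adjusted p = 0.0422 by edgeR's quasi-likelihood test). Just outside the threshold stood YLH47 and AMD1, whose control differences of 0.42 and 0.34 had an adjusted p of 0.0521 and 0.0530, ZPS1 with 0.0560 for its mutation difference, YPR012W with 0.0627 and HSP42 with 0.0649 for their control differences, all by the same test. Of these, all but ZPS1 were chosen after their values were seen.

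**Figure D2:**
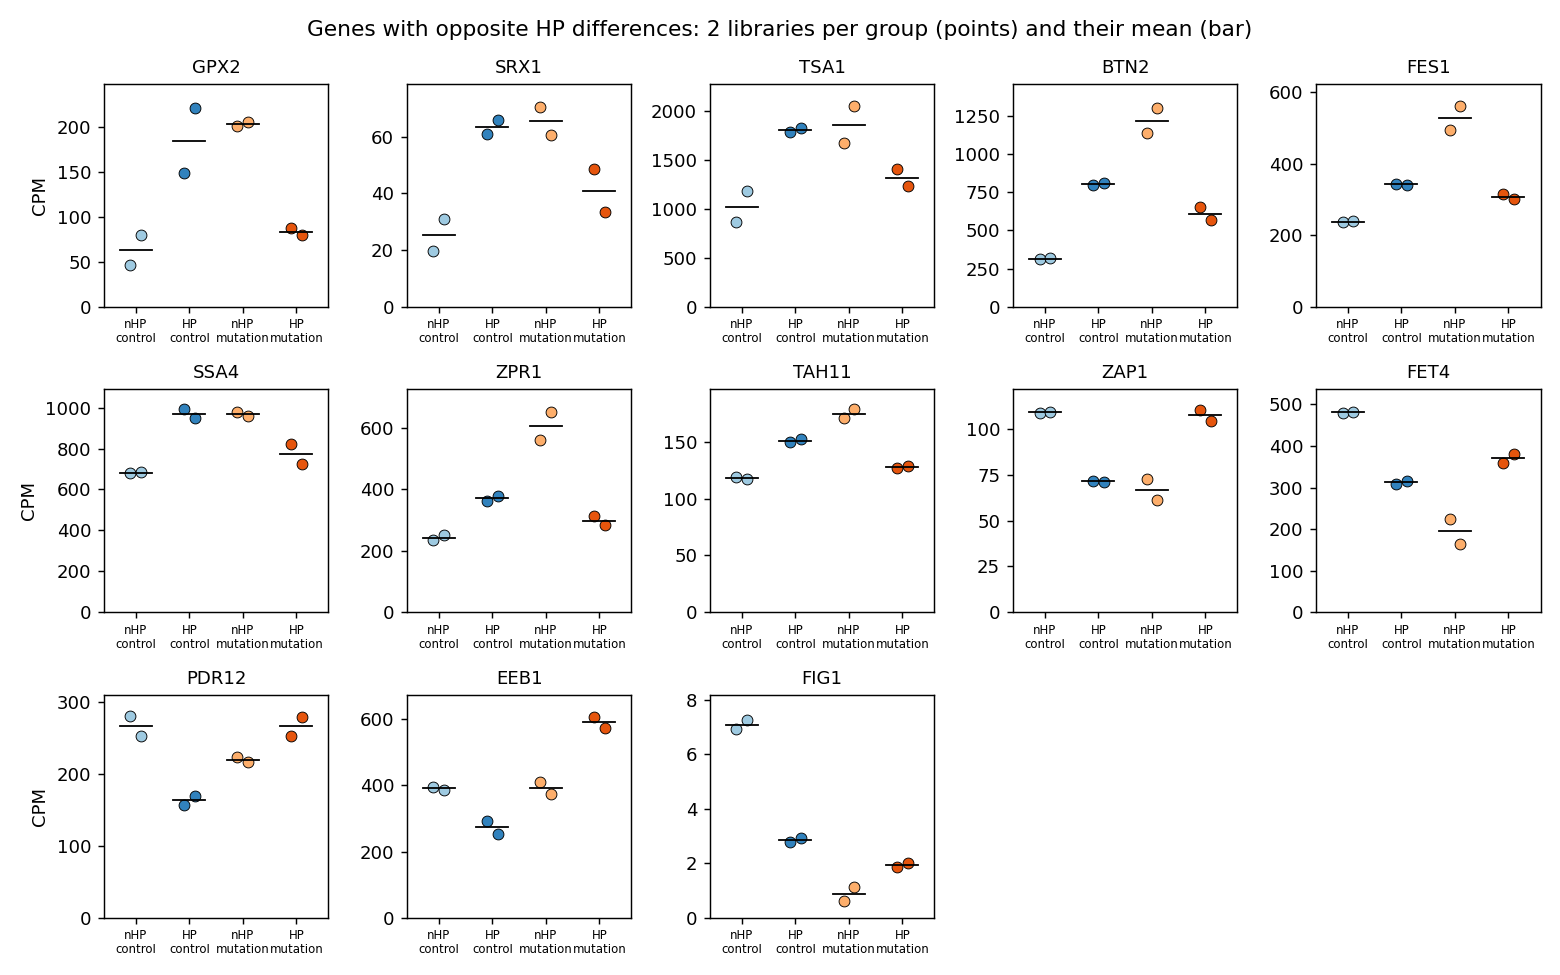
Each panel shows 1 of the 13 opposite genes in CPM (linear axis from 0), with 1 point per library, 2 libraries per group and a bar at their mean. In the first 8 panels HP is above nHP in the control strain and below it in the mutation strain, and in the last 5 the order is the reverse.

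The reverse pattern included a zinc regulator and a metal transporter. ZAP1 encodes the transcription factor that turns on zinc uptake genes when zinc is scarce. It stood at 109 and 109 CPM in nHP and at 71.5 and 71.1 CPM in HP in the control strain, and at 72.5 and 61.2 CPM and 110.2 and 104 CPM in the mutation strain. The nHP control and HP mutation libraries were at one level and the other 4 at a lower one, with no overlap. Its HP difference was -0.61 ± 0.09 in the control and 0.68 ± 0.10 in the mutation strain, and the interaction was 1.29 ± 0.13 (edgeR's quasi-likelihood adjusted p = 4.72e-04). FET4, a low-affinity transporter of iron and other metals, stood at 480.3 and 481 CPM in nHP and 309 and 315 CPM in HP in the control strain, and at 224 and 165 CPM and 358 and 382 CPM in the mutation strain. All 4 mutation libraries were below the nHP control libraries, the titles were reversed without overlap, and the interaction was 1.55 ± 0.18.

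Of the 14 measured genes of the zinc regulon, 6 had a positive and 1 a negative called interaction, with a median of 0.40 against 0.01 for all genes. In all 50% were called, against 29.2% of all genes tested, of which 14.6% were called in each direction. Of the positive members, ZRT1 and ADH4 fell in both strains and IZH4 rose in both, so a positive call was not always a reversal. The list's median HP difference was -0.16 in the control strain, where 5 fell and 1 rose, and -0.10 in the mutation strain, where 5 fell and 4 rose. ZRT1, the high-affinity zinc transporter, fell in both strains, from 1173 and 1403 to 128 and 153 CPM in the control and from 419 and 448 to 146 and 119 CPM in the mutation strain. The HP libraries of both strains overlapped while the nHP libraries did not, and the fall was larger in the control strain (-3.19 ± 0.14 against -1.71 ± 0.14). ZPS1, a cell surface protein induced by zinc shortage, fell in the control strain from 104 and 165 to 16.7 and 19.4 CPM, and stood at 18.8 and 19.2 CPM in nHP and 27.4 and 27.5 CPM in HP in the mutation strain. Its interaction of 3.42 ± 0.29 was among the 6 largest positive ones at a mean of at least 10 CPM, and its mutation difference was not called. The negative count of 1 was 0 without the first nHP control library, the second nHP mutation library or the second HP mutation library, and 2 without the first HP control library.

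PDR12, EEB1 and FIG1 complete the reverse pattern. PDR12, an exporter of weak organic acids, stood at 281 and 253 CPM in nHP and at 157 and 168 CPM in HP in the control strain, and at 223 and 216 CPM and 252 and 279 CPM in the mutation strain. EEB1, which makes ethyl esters of medium-chain fatty acids, stood at 397 and 385 CPM and 293 and 255 CPM in the control strain and at 411 and 375 CPM and 607 and 574 CPM in the mutation strain. Both were reversed without overlap, PDR12 mainly through its fall in the control strain (-0.71 ± 0.09 against 0.28 ± 0.09) and EEB1 about equally in each (-0.51 ± 0.10 against 0.59 ± 0.10). FIG1, a membrane protein of mating cells, stood at 6.92 and 7.25 CPM and 2.78 and 2.92 CPM in the control strain and at 0.623 and 1.11 CPM and 1.87 and 2.01 CPM in the mutation strain. These levels are low, and those of the nHP mutation libraries lie nearest to what 3 counts are worth there (0.374 and 0.371 CPM). The gene belongs to the pheromone response, which differs between the strains as given above.

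The promoters of 3 members chosen in the same way among those with a mean of at least 10 CPM are shown for comparison, in the same window and build. FET4 lies at chrXIII:914489-914788 (- strand), ZAP1 at chrX:333024-333323 (- strand) and EEB1 at chrXVI:369392-369691 (- strand). Capitals in ZAP1 mark a zinc-responsive element, the binding site of Zap1 itself, 144 bases before the start codon, which is found in 0.150% of all promoters of this length and in 3 of 14 zinc regulon promoters. That element was added to the search after promoters were seen, so its match supports nothing. None of the motifs searched was found in the FET4 and EEB1 windows.
FET4: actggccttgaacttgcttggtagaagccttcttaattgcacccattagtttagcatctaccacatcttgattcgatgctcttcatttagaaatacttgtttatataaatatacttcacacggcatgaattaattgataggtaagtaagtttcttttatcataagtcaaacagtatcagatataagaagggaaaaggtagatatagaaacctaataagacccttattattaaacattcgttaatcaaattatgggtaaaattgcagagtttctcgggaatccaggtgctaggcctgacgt
ZAP1: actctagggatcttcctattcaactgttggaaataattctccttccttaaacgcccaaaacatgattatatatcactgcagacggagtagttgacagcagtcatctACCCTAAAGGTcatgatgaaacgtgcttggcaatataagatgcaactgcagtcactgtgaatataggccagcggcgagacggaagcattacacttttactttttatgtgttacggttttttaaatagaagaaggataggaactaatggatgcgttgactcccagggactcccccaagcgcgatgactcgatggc
EEB1: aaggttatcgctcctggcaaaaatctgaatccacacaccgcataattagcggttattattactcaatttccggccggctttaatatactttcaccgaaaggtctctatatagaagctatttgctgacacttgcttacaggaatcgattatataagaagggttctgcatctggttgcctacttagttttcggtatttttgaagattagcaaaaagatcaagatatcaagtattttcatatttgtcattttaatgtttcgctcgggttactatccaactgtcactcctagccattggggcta

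Membership among the opposite genes depended on single libraries of both strains. Leaving out the first HP control library, which leaves that group with 1 library assumed to vary like the others, gave 76 opposite genes, 43 higher and 33 lower in the mutation strain, and 12 of the 13 were among them. Those 76 included 11 ribosome biogenesis genes and 4 peroxide enzymes on the lower side, and 4 carboxylate and polyol transporters, 3 trehalose and glycogen genes and 2 gluconeogenesis genes on the higher side. Leaving out the second HP control library gave 20, and leaving out any other library gave 6 to 10: 6 without the first nHP control library, 7 without the second, 9 and 10 without the first or second nHP mutation library, and 8 and 7 without the first or second HP mutation library. Of the 13, 4 and 6 were called again without the first or second nHP control library, 11 without the second HP control library, 8 and 9 without the first or second nHP mutation library, and 7 and 6 without the first or second HP mutation library. The 2 HP control libraries differed by more than 1.5-fold in 295 genes, against 150 to 220 in the other groups. GPX2 and BTN2 were opposite under 18 of the 19 alternative settings, ZAP1 under 17, ZPR1 and FES1 under 16, PDR12 under 15, EEB1 under 14, SRX1 under 13, FET4 and TSA1 under 12, FIG1 under 10, SSA4 under 8 and TAH11 under 5. The estimates of all 13 had opposite signs under every setting in which the gene was tested.

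Ribosome biogenesis, one of the longest of the 41 lists, had more called members than any other, all of them negative. The share called was 93.0%, against 29.2% of all genes tested, of which 14.6% were called negative. Of 114 measured ribosome biogenesis genes, 106 had a negative call and the estimates of all 114 were negative, with a median interaction of -0.89 against 0.01 for all genes, or -0.74 without composition correction. In the mutation strain 109 fell with a median of -0.87, and the median in the control strain was 0.02. NOP7, a pre-ribosome assembly factor, stood at 556 and 599.7 CPM in nHP and 538 and 634 CPM in HP in the control strain, and at 1023 and 1258 CPM and 426 and 475 CPM in the mutation strain. The nHP mutation libraries were above all control libraries and the HP mutation libraries below all of them, and the interaction was -1.36 ± 0.18 (edgeR's quasi-likelihood adjusted p = 0.00111). DBP2, an RNA helicase, had an interaction of -1.39 ± 0.24. Of 20 subunits and factors of RNA polymerases I and III, which transcribe ribosomal and transfer RNA, 16 were negative (80%), with RPA135 at -1.17 and RPA190 at -1.16, both core subunits of polymerase I. That count was 9 without the first nHP control library, and 10 without the second nHP mutation library or the first HP mutation library. For the 132 measured cytosolic ribosomal protein genes, 127 estimates were negative with a median interaction of -0.31, but none had a called interaction by edgeR (16 at an unadjusted p below 0.05, all negative, and 4 by DESeq2), and 114 fell in the mutation strain. The difference between these lists was not tested. Their median HP difference was -0.17 in the control and -0.48 in the mutation strain, and 56 were called without the first HP control library and 8 without the first nHP mutation library. Of 68 mitochondrial ribosomal protein genes 1 was called.

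Protein folding and degradation moved in the same direction as ribosome biogenesis. All 8 measured subunits of the CCT chaperonin, which folds actin and tubulin, were negative, with a median of -0.81. CCT2 stood at 282 and 333 CPM in nHP and 313 and 336 CPM in HP in the control strain, and at 443 and 535 CPM and 289.7 and 270.4 CPM in the mutation strain, so that the control libraries overlapped between titles and the mutation libraries did not. Of 34 proteasome genes, 29 were negative with a median of -0.56, and the median HP differences were 0.17 in the control strain and -0.39 in the mutation strain, where 28 fell. RPN1 and PRE8 had interactions of -0.94 ± 0.15 and -0.84 ± 0.15. The proteasome count was the most sensitive of these: it was 5 without the first nHP control library, 11 without the second nHP mutation library, 14 without the second HP mutation library, and 17 without the first HP mutation library. Of 20 genes for folding in the endoplasmic reticulum, 7 were negative and 1 positive, with KAR2, the Hsp70 of that compartment, at -1.38 ± 0.15 and ERO1, which drives disulfide formation, at -1.14 ± 0.12. The share called was 100% of the CCT, 85.3% of the proteasome and 40% of the endoplasmic reticulum genes, against 29.2% of all genes tested.

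**Figure D3:**
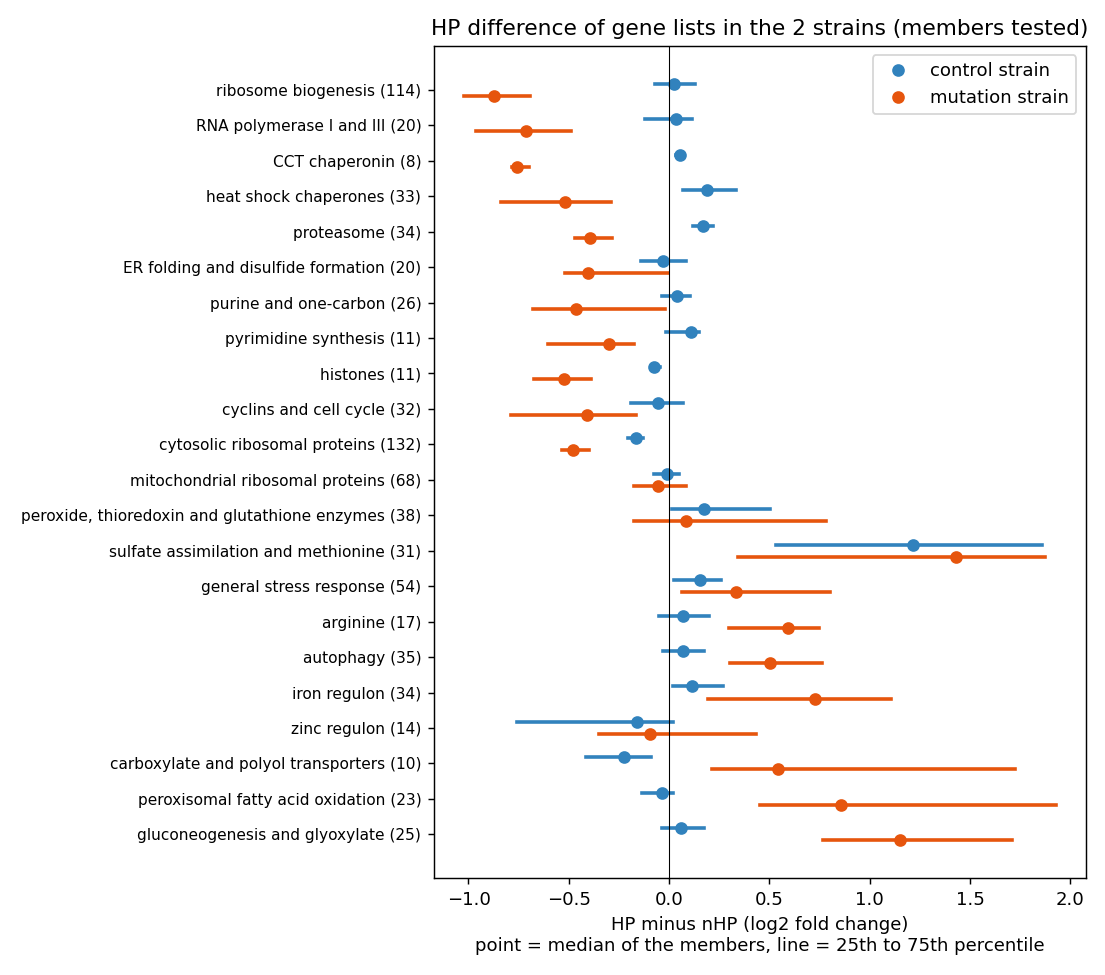
For each gene list, with the number of members tested in brackets, the point is the median log2 HP minus nHP difference of its members and the line spans their 25th to 75th percentile, in blue for the control and in orange for the mutation strain. Ribosome biogenesis (-0.87 in the mutation strain, 0.02 in the control) and gluconeogenesis (1.15 and 0.06) lie far apart between the strains, while the sulfate and methionine genes (1.43 and 1.22) lie close together.

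Of the 6 largest positive interactions, 3 belonged to genes for respiratory growth or for using acetate and fatty acids. RGI2, a gene of respiratory growth, stood at 38.0 and 31.2 CPM in nHP and 57.4 and 16.8 CPM in HP in the control strain, and at 37.2 and 11.6 CPM and 403 and 329.5 CPM in the mutation strain. The HP mutation libraries were far above the other 6, and the HP control libraries differed by more than 3-fold from each other. Its interaction was 3.84 ± 0.68 (edgeR's quasi-likelihood adjusted p = 0.00298). ADY2, an acetate transporter, stood at 65.7 and 53.9 CPM and 68.8 and 26.6 CPM in the control strain and at 57.9 and 31.9 CPM and 401 and 345 CPM in the mutation strain, and POX1, the first enzyme of fatty acid oxidation, at 34.0 and 30.5 and 45.9 and 18.4 CPM and at 41.6 and 22.8 and 264 and 215 CPM in the same order. For all of these the control titles overlapped and the mutation titles did not, and the interactions of ADY2 and POX1 were 3.40 ± 0.49 and 2.93 ± 0.47. The hydrophilin gene GRE1 and the phosphate transporter gene PHO89 complete the 6 largest, with 2.85 ± 0.62 and 2.86 ± 0.31.

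As lists, 20 of 25 gluconeogenesis and glyoxylate genes, 18 of 23 genes of peroxisomal fatty acid oxidation and 7 of 10 carboxylate and polyol transporters were called positive, and 23, 22 and 10 of their estimates were positive. The medians were 1.04, 0.92 and 0.82. The shares called were 80%, 78.3% and 70%, against 29.2% of all genes tested. PCK1, which commits carbon to gluconeogenesis, had an interaction of 2.35 ± 0.30, ACS1, an acetyl-CoA synthetase, of 2.17 ± 0.40, FOX2 of peroxisomal oxidation of 2.39 ± 0.39, and JEN1, the lactate transporter, of 2.69 ± 0.39. The mean level of the gluconeogenesis list, in log2 CPM relative to each gene's mean over the 8 libraries, was -0.15 and -0.31 in the nHP control, 0.01 and -0.39 in the HP control, -0.26 and -0.46 in the nHP mutation and 0.80 and 0.75 in the HP mutation libraries. Only the HP mutation libraries stood apart, and the other 6 overlapped. The gluconeogenesis count was 13 without the second nHP mutation library. Respiratory growth genes were positive in 6 and negative in 2 of 19, with NDE2 at 2.24, and 12 were positive without the first HP control library. Of 20 genes of the TCA cycle 4 were positive and 1 negative, of 35 genes of the respiratory chain and ATP synthase 2 and 1, and of 21 hexose transport and sensing genes 4 were positive. These are 25%, 8.57% and 19.0% called, below the 29.2% of all genes tested. The positive TCA count was 1 without the first nHP control library, the second nHP mutation library or the first HP mutation library, 2 without the second nHP control library, and 8 without the first HP control library. Of 24 glycolysis and fermentation genes, 4 were positive and 6 negative, with PDC5, a pyruvate decarboxylase that is 87.2% identical to PDC1, at -1.07 ± 0.20. The share called was 41.7% of these genes and 42.1% of the respiratory growth genes. The negative glycolysis count was 1 without the first nHP control library or the first HP mutation library, 2 without the second nHP control library, the second nHP mutation library or the second HP mutation library, and 3 without the first HP control library.

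**Figure D4:**
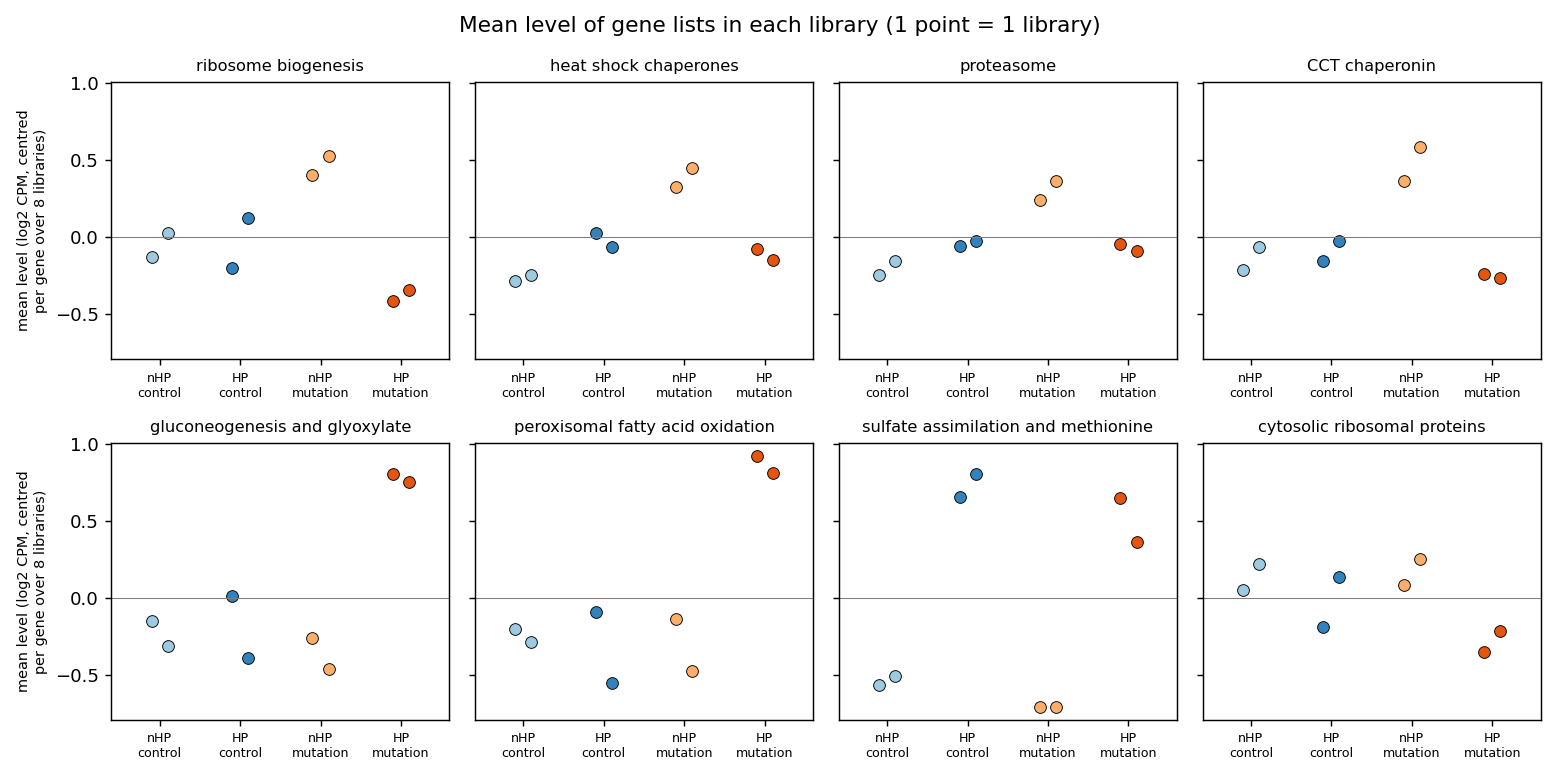
Each panel shows 1 gene list and each point 1 library, as the mean over members of log2 CPM centred on each gene's mean over the 8 libraries. For ribosome biogenesis, chaperones, proteasome and CCT the nHP mutation libraries are highest, for gluconeogenesis and peroxisomal genes the HP mutation libraries are highest, and for sulfate and methionine genes both HP groups are above both nHP groups.

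The iron, copper, phosphate, autophagy, arginine and stress lists had more positive than negative calls, and the list of other amino acids had more negative ones. Of 34 iron regulon genes, which bring in iron when it is scarce, 20 were positive, with a median of 0.53. FIT3, a cell wall protein that holds iron carriers, stood at 65.6 and 55.7 CPM in nHP and 61.4 and 43.4 CPM in HP in the control strain and at 48.0 and 50.8 CPM and 134 and 115 CPM in the mutation strain, with an interaction of 1.56 ± 0.21. The iron count was 9 without the second nHP mutation library, 11 without the first nHP control library, and 12 without the first HP mutation library. Of 8 copper genes 5 were positive, of 21 phosphate regulon genes 4 were positive and 2 negative, and of 35 autophagy genes, which deliver cell contents to the vacuole, 17 were positive with ATG36 at 0.96 ± 0.20. The copper count was 1 without the second nHP mutation library or the first HP mutation library, and 3 without the second nHP control library or the second HP mutation library. The positive phosphate count was 1 without the second nHP mutation library, and 2 without the first nHP control library or the second HP mutation library. The phosphate list, with 28.6% called, was at the 29.2% of all genes tested. The autophagy count was 6 without the second nHP mutation library, 8 without the second HP mutation library, 9 without the first nHP control library or the first HP mutation library, and 10 without the second nHP control library. Of 17 arginine genes 6 were positive, with the arginine transporter gene ALP1 at 1.66 ± 0.26, and 3 were called without the second nHP control library, the second nHP mutation library or either HP mutation library. Of 58 genes for other amino acids 7 were positive, led by ARO9 (1.90 ± 0.26) and GDH3 (1.69 ± 0.22), and 14 negative, a number that was 1 without the first nHP control library, 3 without the second nHP mutation library, 4 without the first HP mutation library, 5 without the second nHP control library or the second HP mutation library, and 9 without the second HP control library. Of 54 general stress response genes 16 were positive and 5 negative, with SIP18 at 2.68 ± 0.47, and the positive count was 6 without the second nHP mutation library, and 7 without the first nHP control library or the first HP mutation library. Of 22 trehalose and glycogen genes 7 were positive and 1 negative, with PIG2 and GLG2, both of glycogen synthesis, at 1.37 and 1.26, and 4 were positive without the second nHP mutation library. The share called was 35.3% of the arginine, 36.2% of the other amino acid, 36.4% of the trehalose and glycogen and 38.9% of the general stress genes. These are not far above the 29.2% of all genes tested, of which 14.6% were called in each direction. The share was 48.6% of the autophagy, 58.8% of the iron regulon and 62.5% of the copper genes.

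The nucleotide, cell cycle, cell wall and histone lists had more negative than positive calls. Of 26 purine and one-carbon genes 13 were negative and 1 positive, with GUA1, GMP synthase, at -1.13 ± 0.18 and FCY2, a purine and cytosine transporter, at 0.97 ± 0.15. GUA1 stood at 884 and 1104 CPM in nHP and 479.8 and 481 CPM in HP in the mutation strain and between 559 and 683 CPM in the control strain, where the titles overlapped. The purine count was 6 without the first nHP control library, 7 without the second nHP mutation library or the first HP mutation library, and 8 without the second HP mutation library. Of 11 pyrimidine genes 6 were negative and 1 positive, with URA7, CTP synthase, at -1.21 ± 0.23. Of 32 cyclin and cell cycle genes 11 were negative and 1 positive, with the mitotic cyclin gene CLB2 at -1.08 ± 0.20, and of 34 cell wall genes 13 were negative and 1 positive, with CIS3 at -0.98 ± 0.16. The negative pyrimidine count was 2 without the first nHP control library, the second nHP mutation library or the first HP mutation library. For the cell cycle it was 4 without the second nHP mutation library, 5 without the first nHP control library or the first HP mutation library, and 7 without the second nHP control library or the second HP mutation library. For the cell wall it was 4 without the second nHP mutation library, 6 without the first nHP control library, the second nHP control library or the first HP mutation library, and 8 without the second HP mutation library. Of 11 histone genes 4 were negative, 7 without the first HP control library, 5 without the first nHP mutation library and 0 without any other 1 library by edgeR's test, whose full fit at an unadjusted p below 0.05 gave 7 and DESeq2 6. Of 17 ribonucleotide reductase and DNA damage genes 4 were negative, and of 26 ergosterol genes 4 were negative and 1 positive. In total 23.5% and 19.2% of these lists were called, against 29.2% of all genes tested, so neither stands above the background. The share was 36.4% of the histone, 37.5% of the cell cycle and 41.2% of the cell wall genes. It was 53.8% of the purine and one-carbon and 63.6% of the pyrimidine genes. The negative ergosterol count was 1 without the first nHP control library, the second nHP mutation library or the second HP mutation library, 2 without the second nHP control library, the second HP control library or the first HP mutation library, and 9 without the first HP control library.

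Genes called in the control strain alone showed the smaller set of interactions in which the control strain moved more. SAM1 and SAM2, which make S-adenosylmethionine and are 83.6% identical to each other, rose in the control strain from 433 and 492 to 902 and 988 CPM and from 281 and 324 to 648 and 757 CPM. In the mutation strain SAM1 stood at 661 and 879.9 CPM in nHP and 734 and 676 CPM in HP, and SAM2 at 443 and 619 and 647 and 553 CPM. The titles overlapped for SAM1 and SAM2 in the mutation strain and not in the control strain, and the interactions were -1.16 ± 0.19 and -1.04 ± 0.22. HUG1, a small inhibitor of ribonucleotide reductase induced by DNA damage, rose in the control strain from 3.14 and 3.03 to 14.2 and 14.4 CPM and stood at 3.86 and 2.85 and 3.73 and 3.92 CPM in the mutation strain, with an interaction of -2.02 ± 0.32. HEM13, a heme synthesis enzyme, fell in the control strain from 256 and 218 to 135 and 145 CPM and stood at 125 and 119 and 135 and 155 CPM in the mutation strain, with an interaction of 1.01 ± 0.15. SAM1 and SAM2 were named by rule, and HUG1 and HEM13 were chosen after their values were seen.

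Sulfate assimilation and methionine synthesis rose with HP in both strains. Of 31 measured genes, 24 rose in each strain, the median HP difference was 1.22 in the control and 1.43 in the mutation strain, and the median interaction was 0.03. STR3, a cystathionine lyase, rose from 10.7 and 13.4 to 109 and 131 CPM in the control and from 5.73 and 4.82 to 75.3 and 44.2 CPM in the mutation strain, and MUP1, the methionine permease, from 162 and 158 to 631 and 705 CPM and from 157 and 144 to 643 and 520.2 CPM. Their interactions of 0.19 ± 0.39 and -0.11 ± 0.16 were not called, and they were chosen after their values were seen. The interaction was called for 10 of the 31, 5 in each direction (32.3% called, near the 29.2% of all genes tested), and the negative count was 2 without the first nHP control library or the second nHP mutation library, 3 without the second HP mutation library, and 8 without the first HP control library. The positive count was 3 without the second nHP mutation library.

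The mating, meiosis and oxygen-regulated lists had more positive than negative calls. Of 40 genes of mating type a and the pheromone response 16 were positive and 3 negative, with FUS1, a cell fusion protein, at 67.9 and 73.9 CPM in nHP and 68.2 and 58.1 CPM in HP in the control strain and at 8.10 and 7.67 and 24.2 and 20.1 CPM in the mutation strain. FUS1 rose in the mutation strain from a level far below that of the control strain, with an interaction of 1.67 ± 0.20. The positive count was 7 without the second nHP mutation library and 9 without the first HP mutation library. All 4 measured alpha genes were positive, a count that was 1 without the first nHP control library, and 2 without the second nHP control library, the second nHP mutation library or the first HP mutation library. These alpha genes are 4 of 8 listed. With all libraries in the fit, SAG1 and MF(ALPHA)2 were called in neither strain, and MF(ALPHA)1 and STE3 stood at only 2.10 to 8.49 CPM. Of 36 meiosis genes 9 were positive and 2 negative, with REC8, a meiotic cohesin, at 2.06 ± 0.32, and of 23 anaerobic and heme-regulated genes 9 were positive, with DAN1, a cell wall protein of cells without oxygen, at 2.65 ± 0.39. DAN1 rose in both strains, from 3.79 and 4.98 to 11.5 and 11.4 CPM in the control and from 0.623 and 0.866 to 11.8 and 13.0 CPM in the mutation strain. Of 21 Yap1 targets outside the enzyme list 4 were positive and 2 negative, led by YML131W at 1.04 ± 0.19, and of 29 genes of TFIID and SAGA 3 were positive. The share called was 28.6% of the Yap1 targets, 10.3% of the TFIID and SAGA genes and 30.6% of the meiosis genes, against 29.2% of all genes tested, so these counts are near or below the background. It was 39.1% of the anaerobic and heme-regulated genes and 47.5% of the mating type a and pheromone genes. The positive meiosis count was 3 without the first nHP control library or the second nHP mutation library, and 5 without the second nHP control library or the first HP mutation library. For Yap1 targets it was 1 without the second nHP control library, the second nHP mutation library or the first HP mutation library, and 2 without the first nHP control library. For TFIID and SAGA it was 0 to 5, lowest without the first nHP control, second nHP mutation or second HP mutation library.

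For the regulators themselves only transcript levels were measured, not protein activity. YAP1, SKN7, MSN2 and MSN4 had interactions of -0.22 ± 0.13, -0.08 ± 0.13, -0.03 ± 0.13 and -0.03 ± 0.11, none called, with adjusted p-values of 0.198 to 0.888 by edgeR's quasi-likelihood test. Of 20 genes of stress transcription factors 4 were positive and 1 negative, with HOT1, a factor of the osmotic stress response, at 0.83 ± 0.15, which is 25% called against 29.2% of all genes tested. URA3, which the medium selects for, stood at 3939 and 4205 CPM in nHP and 3676 and 3172 CPM in HP in the control strain and at 1842 and 1801 CPM and 3456 and 3118 CPM in the mutation strain. The nHP mutation libraries were below the other 6, and the interaction was 1.10 ± 0.18 (adjusted p = 0.00235 by edgeR's test). TAF10 had an interaction of 0.56 ± 0.23 (adjusted p = 0.0906, not called), and its call depended on the tool and scaling: 0.00821 by DESeq2 and 0.0128 without composition correction. HIS3, at 0.22 ± 0.18, was not called.

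Promoter motif counts are given for the ribosome biogenesis, proteasome and chaperone lists, on both strands of the same windows. PAC (GATGAG) was found in 106 of 115 ribosome biogenesis promoters (92.2%) and in 20.4% of all 6001 promoters, and RRPE (AAAATTTT) in 91 of 115 (79.1%) and in 9.03% of all. The proteasome-associated control element GGTGGCAAA, bound by Rpn4, was found in 27 of 34 proteasome promoters (79.4%) and in 1.20% of all. The inverted heat shock element was found in 17 of 33 chaperone promoters (51.5%) and in 12.9% of all. It was added to the search after promoters were seen, so these shares support nothing. Such matches are known features of these gene groups and do not show which factor acted here.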

How the data were processed

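RNA from 8 yeast libraries was prepared with the NEBNext Ultra kit, per the labels' protocols, and reads were aligned with TopHat2 2.0.9, per the submitters' processing notes. The deposited counts are whole reads per gene without normalization. The deposited RPKM values are the authors' counts scaled to gene length and library size, and their implied gene lengths equal R64 exon lengths within 0.5 bases for 5844 of 5888 genes (99.25%). Counting program, strand setting and build: not given in the sources used here. Overlapping genes can therefore share reads. All mapped per-sample columns were used.

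Of 7126 IDs, 6079 have a name in the R64 reference. IDs without one held 0.337% to 0.442% of counts. Counts were fitted with edgeR 4.0.16 (R 4.3.3, TMM, filterByExpr, quasi-likelihood F test, two-sided) as 1 model of 4 group means with 4 residual degrees of freedom. The variation between libraries of a group, the square root of the common dispersion, was 8.07%. Called means a Benjamini-Hochberg adjusted p below 0.05 over 6174 genes. Opposite genes were called in the interaction and in both strains with opposite signs. SEs come from the F statistic. CPM is scaled to 1e+06 counts after TMM. 3 counts are worth 0.266 to 0.374 CPM, counting error only.

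The members and the 41 gene lists were chosen with earlier results of these data known, so the lists are described by counts and medians without a list test, and their choice supports nothing. Named by rule were opposite genes averaging 10 CPM or more whose HP and nHP libraries did not overlap in either strain. So were the 6 largest interactions in each direction, the 2 largest called members of each list with at least 5 members and 25% called, and the markers and regulators named above. Promoters were read from the R64 genome and its gene models in place of a promoter table, 250 bases before to 50 after the start codon. The inverted heat shock, second Yap1 and zinc-responsive elements were added after promoters were seen. Interactions were planted in simulated data with these means and library sizes (6174 genes). Of these, 50.7% of 1.5-fold, 97.0% of 2-fold and 100% of 4-fold ones were recovered, with 7.82% false interaction calls. Opposite genes with a 4-fold interaction, changed 2-fold in each strain, were recovered in 32 of 33 cases. Smaller opposite responses, such as those of most of the 13 opposite genes, were not counted. Only genes of at least 10 CPM were changed, and far fewer than the 1803 called here. Alternatives used DESeq2 1.42.0 and limma 3.58.1 (voom, and log2 RPKM with a pseudocount of 1 or 0.1). Similar genes were found with BLAST 2.17.0, and plots made in matplotlib 3.10.9 under Python 3.11.15.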

Additional observations from a re-analysis of the deposited data

Results flagged for a closer look

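The difference between the strains' HP effects was tested directly by the interaction, and 13 genes stood out because their effects were called in opposite directions. On the log2 scale (mutation minus control) the interactions were -2.84 for GPX2, -2.36 for BTN2, -2.00 for SRX1, -1.64 for ZPR1, -1.32 for TSA1, -1.30 for FES1, -0.84 for SSA4 and -0.81 for TAH11. They were 1.55 for FET4, 1.29 for ZAP1, 1.10 for EEB1, 0.99 for PDR12 and 2.45 for FIG1. FIG1 rests on a mean of 3.19 CPM. The part of the mating type transcripts and of TAF10, which move with the strain, in these interactions was not tested.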

How the results depend on the processing

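Of 1803 interaction calls, 904 positive and 899 negative, the alternatives gave 11 (8 and 3) against a 2-fold minimum with glmTreat, 576 negative without composition correction and 503 negative with limma on log2 RPKM at a pseudocount of 1 and again of 0.1. Leaving out 1 library gave 724 to 2554 calls, 347 to 1357 positive and 377 to 1197 negative. The 13 opposite genes, 5 higher and 8 lower in the mutation strain, became 0 (0 and 0) with glmTreat (1 at an unadjusted p below 0.05), 13 lower ones with DESeq2 and 4 lower ones with limma on log2 RPKM at either pseudocount. Leaving out 1 library gave 6 to 76, 2 to 43 higher and 2 to 33 lower. A model with the replicate number as a block gave 220 control calls and 36 opposite genes (10 and 26), with all 13 among them. Added were AHP1, TRR1, GSH1, SOD1, HSP82, HSP42, HSP78, HEM13, ZPS1, YLH47, AMD1 and YPR012W of the genes named above or in their lists, so 7 peroxide enzymes and 6 chaperones were opposite there. The labels tie the numbers to no shared culture or day, and replicate deviations correlated at 0.16 to 0.20 for 4 of 6 pairs of groups and at 0.05 and -0.03 for the others, so pairing is not established. The 121 control calls were 20 with glmTreat and 51 to 218 over the leave-outs, and the 3043 mutation calls 80 and 1773 to 3466. No named gene's called interaction changed sign under any of these. The cause of these shifts was not tested. Lists shifted as well: without composition correction the negative calls for other amino acids went from 14 to 5 and the positive calls for respiratory growth from 6 to 11. The median of mitochondrial ribosomal proteins changed sign, from -0.05 to 0.10. With 2 libraries a group, interactions of 1.5-fold are at the limit of this design.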
